A study of Mus musculus with 8 samples.

Results

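Neutrophil granule and S100 genes were examined in tumor-associated macrophages (TAMs), the macrophages that live inside a tumor, sorted from mouse melanomas. The members are 9 genes of the 23413 in the count table: Ltf, Ngp, Camp, Lcn2, Mmp8, Mmp9, Retnlg, S100a8 and S100a9. They were selected on their own counts in these libraries, which stood out from the DMSO mice in mice given thiostrepton, above all by paratumor subcutaneous (S.C.) injection, so their levels are given here as a description without a test. B16F10 melanoma cells, a C57BL/6 mouse line, were placed under the skin of male C57BL/6 mice aged 8 to 10 weeks, which were dosed on days 6 and 12. The vehicle DMSO was used for 2 mice, while 4 mice received thiostrepton, a thiopeptide antibiotic, by intraperitoneal (I.P.) injection and 2 mice received it S.C. beside the tumor at 20 mg/kg. The I.P. dose of these 4 mice and the route used for the 2 DMSO mice are not given in the sources used here. On day 18 the tumors were removed and sorted for cells positive for CD45, F4/80 and CD11b and negative for Gr-1, and each mouse gave 1 RNA-seq library of 14127506 to 17577466 counts. Gr-1 is the antibody target made up of Ly6G and Ly6C, so the sort was set to leave neutrophils out. Levels are CPM, a count divided by the scaled size of its library, with TMM scaling over the 8 libraries, where 3 counts, the floor used here, correspond to 0.168 to 0.217 CPM.

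Neutrophils carry ready-made proteins in granules that are filled in turn while the cell matures in the bone marrow. Azurophil granules, filled by promyelocytes, hold Mpo and the serine proteases. Specific granules, filled by myelocytes, hold lactoferrin, Ngp, the cathelicidin Camp and lipocalin 2, and gelatinase granules, filled last, hold Mmp9. S100a8 and S100a9 are calcium-binding proteins that pair as calprotectin, which fills much of the neutrophil cytosol and binds the receptors Tlr4 and Ager once released. Inflammatory monocytes make S100a8 and S100a9 too, and macrophages can make Lcn2 and the metalloproteinases, so these genes are not limited to neutrophils. The transcription factors C/EBP and PU.1 (Sfpi1) drive many granule genes.

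RefSeq promoters were at hand for 8 members, all but Mmp9, from the assembly GRCm38.p6, which is mm10, the build of the counts. The stretches are the bases just upstream of the most upstream annotated start of the gene, 5′ to 3′ on the gene's strand, and are shown because Ltf, Ngp and Camp had their highest levels in the same mice, S100a8 and S100a9 form 1 protein complex, and Mmp8 behaved differently from all of these. Capitals mark TTNNGNAA, a pair of C/EBP half-sites, and GAGGAA, a PU.1 core, on either strand. The stretches lie at chr9:111019171-111019270 (+) for Ltf, chr9:110419647-110419746 (+) for Ngp, chr9:109849618-109849706 (-) for Camp, chr3:90668878-90668977 (+) for S100a8, chr3:90695722-90695821 (-) for S100a9 and chr9:7558329-7558428 (+) for Mmp8.
Ltf: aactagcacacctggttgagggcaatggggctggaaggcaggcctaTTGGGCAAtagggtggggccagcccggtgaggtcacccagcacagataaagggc
Ngp: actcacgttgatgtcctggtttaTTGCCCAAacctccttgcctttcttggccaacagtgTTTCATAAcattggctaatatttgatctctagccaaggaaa
Camp: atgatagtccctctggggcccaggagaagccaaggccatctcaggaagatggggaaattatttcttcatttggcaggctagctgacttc
S100a8: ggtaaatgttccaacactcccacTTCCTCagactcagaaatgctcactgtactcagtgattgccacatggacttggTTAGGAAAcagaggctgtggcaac
S100a9: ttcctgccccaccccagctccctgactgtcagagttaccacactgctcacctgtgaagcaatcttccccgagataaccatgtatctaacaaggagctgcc
Mmp8: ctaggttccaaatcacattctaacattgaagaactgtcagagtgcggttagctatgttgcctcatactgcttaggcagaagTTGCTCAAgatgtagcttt

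Over the 250 bases before the RefSeq start, TTNNGNAA on either strand was found in 7 of the 8 members, all but Camp, and in 36.8% of 32851 mouse promoters of this length. GAGGAA on either strand was found in 4 of 8, Lcn2, S100a8, Mmp8 and Ltf, and in 23.3% of promoters. TATAAA on the gene's strand was found in S100a8 alone and in 7.59% of promoters. No matches to different motifs overlapped in the members. A match describes the letters in this window and was not tied to binding of a factor.

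Ltf encodes lactoferrin, the iron-binding protein of specific granules, and lies at chr9:111019271-111042767. It had 5 and 0 counts in DMSO mice 1 and 2, 14, 0, 3 and 1 counts in I.P. mice 1 to 4, and 24 and 389 counts in S.C. mice 1 and 2. These are levels of 0.340 and 0 CPM, 0.885, 0, 0.168 and 0.0600 CPM, and 1.58 and 28.1 CPM. S.C. mouse 2 stood far above all others and held 89.2% of the Ltf counts of the series, while S.C. mouse 1 and I.P. mouse 1 were the only other libraries above the higher DMSO mouse. The mean in S.C. mice was 14.8 CPM ± 18.8 (SD, n = 2), that in I.P. mice was 0.278 ± 0.410 (SD, n = 4) and that in DMSO mice was 0.170 ± 0.241 (SD, n = 2). On the log2 CPM scale with a prior count of 2, the S.C. mean lay 4.84 above the DMSO mean, with S.C. mouse 1 alone at 2.82 and S.C. mouse 2 alone at 6.87. The I.P. mean lay 0.25 above the DMSO mean, and at -0.35 without I.P. mouse 1, so that the I.P. group as a whole was not set apart from the DMSO mice.

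Ngp encodes neutrophilic granule protein, a cystatin-like protein stored with lactoferrin, and lies at chr9:110419747-110423012. Its counts were 11 and 2 in DMSO mice, 34, 0, 1 and 6 in I.P. mice, and 66 and 828 in S.C. mice. Scaled for depth these are 0.749 and 0.115 CPM, 2.15, 0, 0.0560 and 0.360 CPM, and 4.35 and 59.8 CPM. The order of the libraries at the top was that of Ltf, with S.C. mouse 2, S.C. mouse 1 and then I.P. mouse 1 above both DMSO mice, and I.P. mice 2 to 4 within or below the range of the DMSO mice. The log2 difference from the DMSO mean was 5.16 for the S.C. mean, 3.29 for S.C. mouse 1 and 7.03 for S.C. mouse 2, the highest value of any member. For I.P. mice it was -0.21, and -1.04 without I.P. mouse 1, which alone lay at 2.31.

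Camp encodes the cathelicidin precursor, whose released peptide kills bacteria, and lies at chr9:109847379-109849617. It had 5 and 0 counts in DMSO mice, 6, 0, 0 and 0 counts in I.P. mice, and 17 and 191 counts in S.C. mice, or 0.340 and 0 CPM, 0.379 CPM and 3 libraries at 0, and 1.12 and 13.8 CPM. The I.P. libraries and the DMSO libraries could not be told apart at this depth, since I.P. mouse 1 exceeded DMSO mouse 1 by a single count, whereas both S.C. mice lay above all other libraries. The log2 difference was 4.11 for the S.C. mean, 2.37 for S.C. mouse 1 and 5.85 for S.C. mouse 2.

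Lcn2 encodes lipocalin 2, which withholds iron from bacteria by binding their siderophores. It lies at chr2:32384633-32388252. Counts were 4 and 10 in DMSO mice, 102, 13, 24 and 27 in I.P. mice, and 14 and 276 in S.C. mice, or 0.272 and 0.577 CPM, 6.45, 0.795, 1.34 and 1.62 CPM, and 0.923 and 19.9 CPM. Lcn2 was the only member to exceed both DMSO mice in all 4 I.P. mice, beside 7.29% of the 12174 genes tested, and S.C. mouse 1 lay below 3 of the 4 I.P. mice. I.P. mouse 1 was 15.2 times the DMSO mean, more than for any other member. The log2 difference was 1.91 for the I.P. mean and stayed at 1.33 without I.P. mouse 1. For the S.C. mean it was 3.12, with S.C. mouse 1 at 0.99 and S.C. mouse 2 at 5.25.

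**Figure D1:**
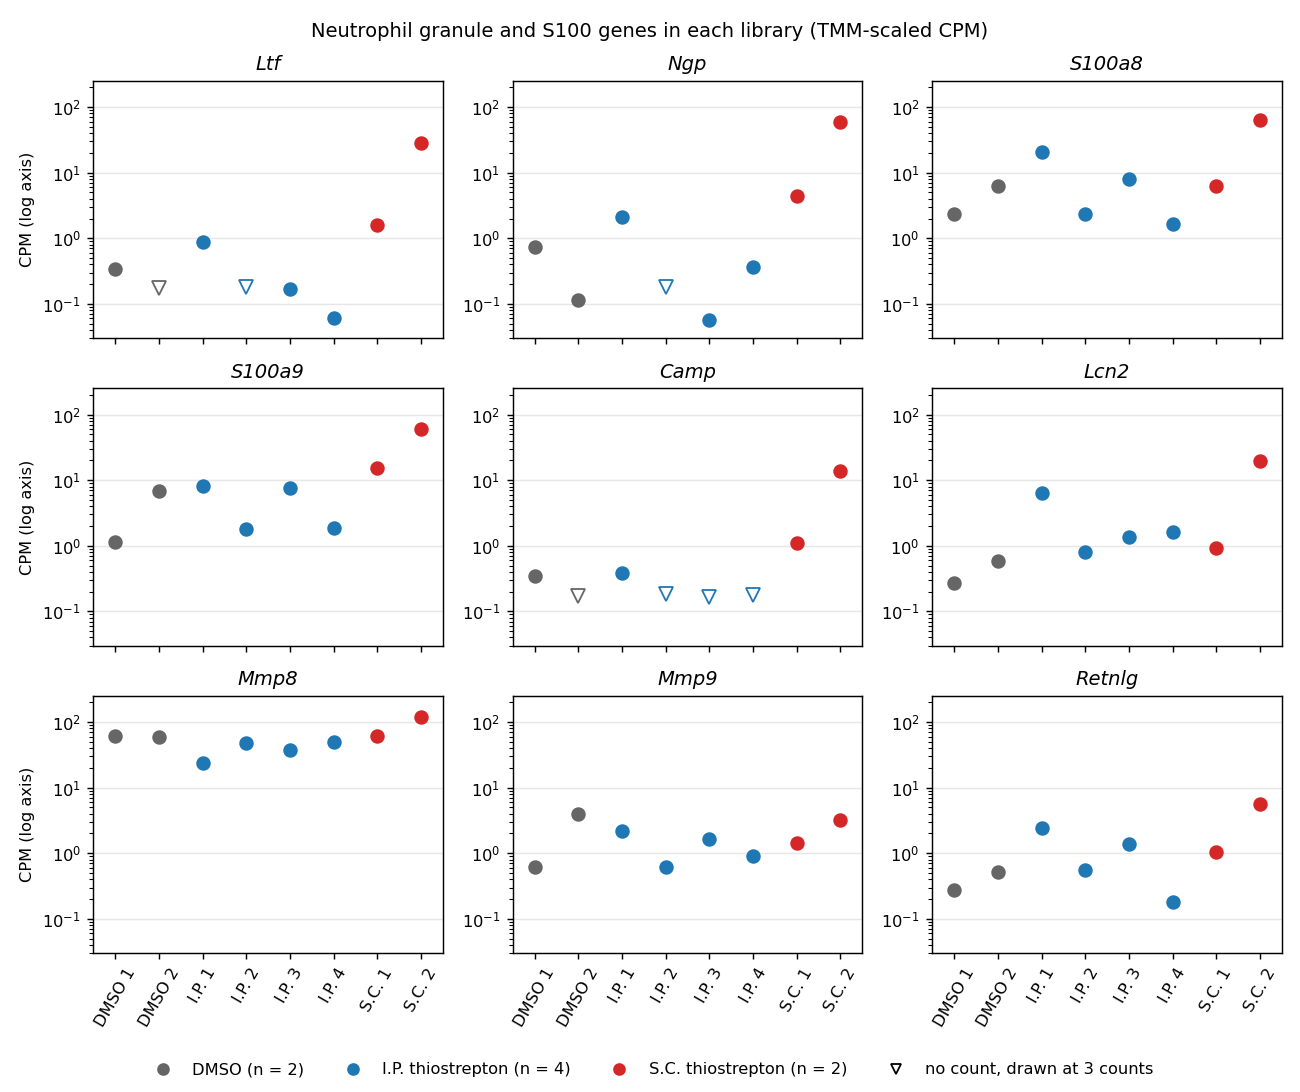
Level of each of the 9 members in each library, as TMM-scaled CPM on a log axis, with 1 point per mouse (grey DMSO, n = 2, blue I.P., n = 4, red S.C., n = 2) and open triangles at 3 counts for libraries without a count. S.C. mouse 2 is the highest library for 8 members, while Mmp8 sits between 24.0 and 119 CPM in every mouse and Mmp9 is highest in DMSO mouse 2 at 3.93 CPM.

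Mmp8 encodes neutrophil collagenase and lies at chr9:7558456-7568485. It differed from the granule genes above in being well counted in all mice, with 892 and 1018 counts in DMSO mice, 379, 787, 666 and 826 in I.P. mice, and 933 and 1645 in S.C. mice. These are 60.7 and 58.8 CPM, 24.0, 48.1, 37.3 and 49.6 CPM, and 61.5 and 119 CPM. All 4 I.P. mice were under the lower DMSO mouse, and I.P. mouse 1, the highest I.P. mouse for the other 8 members, was the lowest of the series. S.C. mouse 1 lay within 1 CPM of the higher DMSO mouse, and S.C. mouse 2 alone was clearly above. The log2 difference was -0.64 for the I.P. mean, -0.42 without I.P. mouse 1, 0.04 for S.C. mouse 1 and 0.99 for S.C. mouse 2.

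Mmp9 encodes gelatinase B, the enzyme after which gelatinase granules are named, and lies at chr2:164940780-164955850. Its counts were 9 and 68 in DMSO mice, 35, 10, 29 and 15 in I.P. mice, and 22 and 44 in S.C. mice, or 0.613 and 3.93 CPM, 2.21, 0.612, 1.63 and 0.900 CPM, and 1.45 and 3.18 CPM. Both S.C. mice lay between the DMSO mice, so neither route was set apart from the vehicle. The S.C. mean exceeded the DMSO mean by 0.40 on the log2 scale with both DMSO mice, fell below it by -0.83 without DMSO mouse 1 and exceeded it by 1.63 without DMSO mouse 2.

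Retnlg encodes resistin-like gamma, a small secreted protein made by marrow neutrophils, and lies at chr16:48872621-48874496. It had 4 and 9 counts in DMSO mice, 39, 9, 25 and 3 in I.P. mice, and 16 and 79 in S.C. mice, or 0.272 and 0.520 CPM, 2.47, 0.551, 1.40 and 0.180 CPM, and 1.05 and 5.71 CPM. S.C. mouse 2 was highest and I.P. mouse 1 followed, with S.C. mouse 1 below I.P. mice 1 and 3. The levels in I.P. and S.C. mice therefore overlapped, and I.P. mouse 4 lay below both DMSO mice. The log2 difference was 2.37 for the S.C. mean and 1.22 without S.C. mouse 2. For the I.P. mean it was 0.91, and 0.43 without I.P. mouse 1.

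S100a8 and S100a9 lie near each other at chr3:90668978-90670035 and chr3:90692632-90695721. S100a8 had 34 and 107 counts in DMSO mice, 333, 38, 142 and 28 in I.P. mice, and 96 and 889 in S.C. mice, or 2.32 and 6.18 CPM, 21.0, 2.32, 7.96 and 1.68 CPM, and 6.33 and 64.2 CPM. S.C. mouse 1 barely exceeded DMSO mouse 2, and I.P. mouse 1 was above it by a wide margin. S100a9 had 17 and 117 counts in DMSO mice, 127, 29, 136 and 31 in I.P. mice, and 234 and 827 in S.C. mice, or 1.16 and 6.76 CPM, 8.03, 1.77, 7.62 and 1.86 CPM, and 15.4 and 59.7 CPM. For S100a9 both S.C. mice were above all I.P. and DMSO mice. Both S.C. mice exceeded all 4 I.P. mice for 5 members, S100a9, Ltf, Ngp, Camp and Mmp8, beside 7.46% of the 12206 genes tested between the routes, a count from which nothing is read as these levels chose the members. The log2 difference of the S.C. mean was 2.38 for S100a8 and 3.36 for S100a9, and without S.C. mouse 2 it was 0.72 and 2.39. For the I.P. mean it was 0.42 and 0.40, and without I.P. mouse 1 it was -0.25 and 0.05. The DMSO mice differed from each other in both genes, with DMSO mouse 2 the higher, and without DMSO mouse 1 the I.P. difference of S100a9 was -0.81, against 1.61 without DMSO mouse 2.

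**Figure D2:**
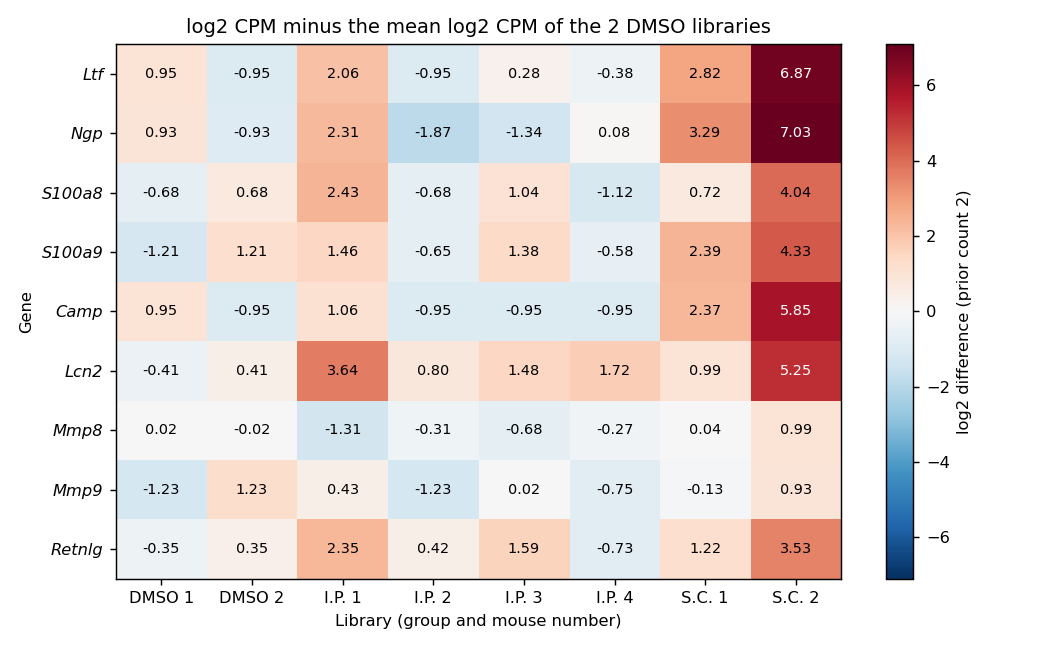
Difference of the log2 CPM (prior count 2) of each member in each library from the mean log2 CPM of the 2 DMSO libraries, as a colour with the value printed in each cell, genes in rows and libraries in columns. The column of S.C. mouse 2 runs from 0.93 for Mmp9 to 7.03 for Ngp, and that of I.P. mouse 1 from -1.31 for Mmp8 to 3.64 for Lcn2.

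Over the 9 members, both S.C. mice lay above both DMSO mice for 8, against 16% of the 11680 genes tested between these groups. The rule that chose the members used this contrast, so the count is not a result about them. S.C. mouse 2 held the highest level of 8 members, and its level was 17.8 times that of S.C. mouse 1 for Ltf, 13.8 times for Ngp, 12.3 times for Camp, 21.6 times for Lcn2, 10.2 times for S100a8, 5.41 times for Retnlg and 3.87 times for S100a9. The ratio was only 1.93 for Mmp8 and 2.19 for Mmp9. I.P. mouse 1 was the highest of the I.P. mice for 8 members and lay above both DMSO mice for 7, all but Mmp8 and Mmp9. Over 13399 genes with at least 20 counts, 20.1% were highest in S.C. mouse 2 and 20.3% in I.P. mouse 1. For I.P. mice 2 to 4 the shares were 4.34%, 5.49% and 13.6%. The members were chosen on these levels, so none of these counts is a result about them. The median log2 difference over the members was 3.12 for S.C. mice, 1.22 without S.C. mouse 2 and 4.33 without S.C. mouse 1. It was 0.25 for I.P. mice and -0.35 without I.P. mouse 1. The sample numbers in the labels place I.P. mouse 1 next to the S.C. mice and before the DMSO mice and the other I.P. mice. What these numbers stand for is not given in the sources used here, and their part in the levels was not tested. In a bulk library, more cells of a type and more RNA per cell cannot be told apart.

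Since the members were selected on these counts, no calls are given for them. In the fits over all genes (edgeR's quasi-likelihood test), all 9 passed the filter on low counts in S.C. against DMSO mice, but 6 of them, Ltf, Ngp, Camp, Lcn2, Mmp9 and Retnlg, had fewer than 2 DMSO libraries at its level and passed through the S.C. libraries. In I.P. against DMSO mice 7 members passed, all but Ltf and Camp, and in S.C. against I.P. mice 9 did. Genes that are not members were called at an unadjusted P under 0.05 with at least a 2-fold change. Some of these, among them Chi3l1, Mrgpra2b, Csf3, Gzma and Cd79a, likewise passed the filter against DMSO mice through the S.C. libraries. Such genes could hardly be called lower in S.C. mice, which limits what their calls show. With edgeR 0 genes of the series had an adjusted p under 0.05 in each of the 3 comparisons, where 632, 418 and 1049 genes had an unadjusted P under 0.05, and DESeq2 gave 107, 19 and 234 genes with an adjusted p under 0.05. The S.C. and I.P. comparisons share the DMSO mice.

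The counts of pairs of members were then set against each other within a library, since a ratio does not depend on scaling (the pairs were chosen after the values were seen). Ngp had 2.75 counts per Ltf count in S.C. mouse 1 (95% exact interval 1.70 to 4.59) and 2.13 in S.C. mouse 2 (1.88 to 2.41), against 2.43 in I.P. mouse 1 (1.27 to 4.90) and 2.2 in DMSO mouse 1 (0.705 to 8.08). These intervals all overlapped, so a difference in proportion was not detectable at these counts in the 4 libraries in which both genes could be compared, although their levels in CPM differed by a large factor. Camp had 0.708 counts per Ltf count in S.C. mouse 1 (0.357 to 1.37), 0.491 in S.C. mouse 2 (0.411 to 0.585) and 0.429 in I.P. mouse 1 (0.135 to 1.19). The intervals cover counting error only, not the spread between mice.

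For the S100 genes the ratios were farther apart. S100a8 had 9.79 counts per Ngp count in I.P. mouse 1 (95% exact interval 6.87 to 14.4), 1.45 in S.C. mouse 1 (1.05 to 2.02) and 1.07 in S.C. mouse 2 (0.976 to 1.18), against 3.09 in DMSO mouse 1 (1.53 to 6.76). I.P. mouse 1 thus held far more S100a8 for its Ngp than either S.C. mouse, but was not the highest of the series. I.P. mouse 4 had 4.67 (1.90 to 13.8). Where Ngp had too few counts for a ratio, S100a8 and Ngp had 107 and 2 counts in DMSO mouse 2. In I.P. mouse 2 they had 38 and 0, and in I.P. mouse 3 142 and 1. S100a9 had 2.44 counts per S100a8 count in S.C. mouse 1 (1.91 to 3.12), 0.930 in S.C. mouse 2 (0.845 to 1.02) and 0.381 in I.P. mouse 1 (0.308 to 0.469). The genes of the 2 calprotectin chains thus stood in different proportions in these 3 libraries, each from a separate mouse, and the spread between mice is not part of the intervals. Under vehicle the ratio was 0.5 in DMSO mouse 1 (0.262 to 0.920) and 1.09 in DMSO mouse 2 (0.834 to 1.43). The value of S.C. mouse 2 lay between these. In I.P. mice 2 to 4 the ratio was 0.763, 0.958 and 1.11. Lcn2 had 3 counts per Ngp count in I.P. mouse 1 (2.02 to 4.56) and 4.5 in I.P. mouse 4 (1.82 to 13.3). It had 0.212 in S.C. mouse 1 (0.110 to 0.382), 0.333 in S.C. mouse 2 (0.290 to 0.382) and 0.364 in DMSO mouse 1 (0.0844 to 1.23). Mmp8 had 81.1 counts per Ngp count in DMSO mouse 1 (45.1 to 163) and 1.99 in S.C. mouse 2 (1.83 to 2.16).

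**Figure D3:**
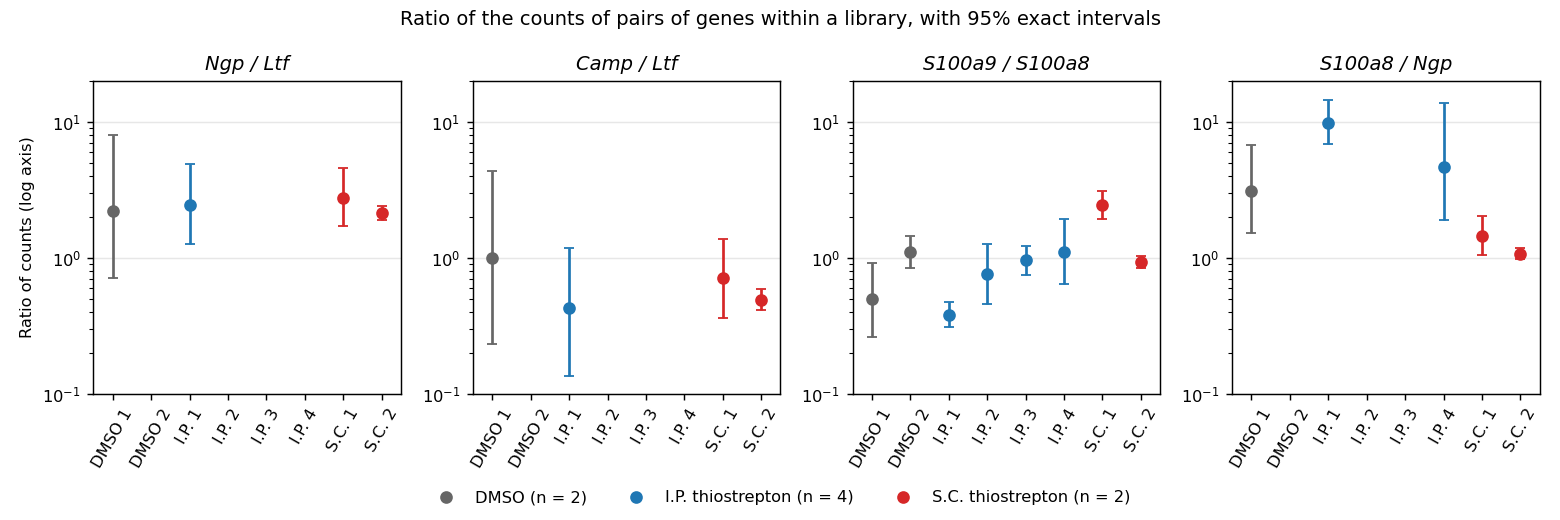
Ratio of the counts of 4 pairs of members within each library, on a log axis, with 95% exact intervals for counting error (grey DMSO, blue I.P., red S.C.); libraries with fewer than 4 counts of either gene are left blank. Ngp per Ltf lies between 2.13 and 2.75 where it is drawn. Among the libraries drawn, S100a8 per Ngp runs from 1.07 in S.C. mouse 2 to 9.79 in I.P. mouse 1. DMSO mouse 2 and I.P. mice 2 and 3 are blank for this pair, as they have few or no Ngp counts.

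Compared per length, as CPM per kilobase of exon, Mmp8 was the highest member in DMSO mice at 24.6 ± 0.572 (SD, n = 2), followed by S100a9 at 7.58 ± 7.58 and S100a8 at 6.12 ± 3.94, which did not differ beyond their spread. The other 6 members had DMSO means per kilobase between 0.0493 for Ltf and 0.668 for Retnlg. In S.C. mouse 2 the order was different, with S100a9 at 114, S100a8 at 92.5, Mmp8 at 49.0, Ngp at 48.9, Camp at 18.2, Retnlg at 9.62, Ltf at 8.15, Lcn2 at 7.60 and Mmp9 at 0.898 CPM per kilobase. Mmp8 thus led the members under vehicle and was matched by Ngp in S.C. mouse 2, where Mmp9 was the lowest.

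Camp, Ngp and Ltf lie in this order within 1169653 bases of chromosome 9, measured between Camp and Ltf. Of 27 other genes of the table in this interval 16 were tested, 0 were called higher in S.C. mice and 1, Kif9, a kinesin, was lower (log2 fold change -4.89). The 16 log2 fold changes had a median of -0.12 and ran up to 1.38. Of all genes tested, 2.29% were called higher and 2.77% lower. With 16 genes, 0 called higher is near the share over all genes, so nothing is read from it.

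Other granule genes, 26 genes that were written down from general knowledge of neutrophils, had 2 of 17 tested genes called higher in S.C. than in DMSO mice, and 0 lower, against 2.29% and 2.77% of all genes tested. Their median log2 fold change was 1.55, beside 0.02 over all genes. The genes called were Chi3l1, a chitinase-like protein of specific granules, at 0.207 ± 0.197 CPM in DMSO mice and 4.28 ± 0.278 in S.C. mice (log2 fold change 4.30, SE 1.24, adjusted p = 0.747), and Slpi, an inhibitor of neutrophil elastase, at 4.05 ± 0.722 and 14.3 ± 7.90 CPM (1.81, SE 0.69, adjusted p = 0.887). Chi3l1 had 1 and 6 counts in DMSO mice and 62 in each S.C. mouse, so it passed the filter through the S.C. libraries. In I.P. mice 2 of 15 were called higher, against 1.53% of all genes tested, Slpi (2.03, SE 0.88, adjusted p = 0.980) and AA467197 (Wfdc21, 1.90, SE 0.76, adjusted p = 0.980), and the median was 0.68. In S.C. against I.P. mice 2 of 19 were called higher, against 2.41% of all genes tested, Mpo (log2 fold change 5.03, SE 1.89) and Elane (5.21, SE 1.60), with 0 called without S.C. mouse 2, 5 without S.C. mouse 1 or I.P. mouse 1, and 1 without I.P. mouse 2, 3 or 4. The I.P. count was 0 without I.P. mouse 1 or DMSO mouse 2, 1 without DMSO mouse 1 or I.P. mouse 4, and 4 without I.P. mouse 2. The S.C. count was 1 without either DMSO mouse, 6 without S.C. mouse 2 and 12 without S.C. mouse 1, in fits that assume that the lone library of a group varies like those of the other. The 3 genes of the list with the highest level, lysozyme (Lyz2), Cyba, a subunit of the NADPH oxidase, and Adam8, which macrophages also express, were not called in S.C. or I.P. mice. Lyz2 averaged 15993 CPM in DMSO mice and 22896 CPM in S.C. mice (log2 fold change 0.52, SE 0.30).

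The azurophil granule genes of that list, taken apart after their values were seen, were near the floor outside S.C. mouse 2. Mpo, myeloperoxidase, had 9 and 0 counts in DMSO mice, 20, 0, 0 and 0 in I.P. mice, and 11 and 278 in S.C. mice. Elane, neutrophil elastase, had 5 and 0, then 6, 0, 1 and 0, then 10 and 108 counts in the same order. Both were far higher in S.C. mouse 2 than in any other mouse, and had 6 to 20 counts in I.P. mouse 1 and S.C. mouse 1. Prtn3 and Ctsg, serine proteases of the same granules, had 78 and 58 counts in S.C. mouse 2 and 1 count each in S.C. mouse 1, where I.P. mouse 1 had 23 and 20. The summed level of Mpo, Elane, Prtn3, Ctsg, Bpi and Prss57 was 38.1 CPM in S.C. mouse 2, 1.52 in S.C. mouse 1, 4.36 in I.P. mouse 1 and between 0.120 and 1.29 in the other 5 libraries. The azurophil sum was thus high in S.C. mouse 2 and lower in S.C. mouse 1 than in I.P. mouse 1. Elane alone went the other way, with 10 counts in S.C. mouse 1 and 6 in I.P. mouse 1. The sum of Ltf, Ngp and Camp was 7.05 CPM in S.C. mouse 1 against 3.41 in I.P. mouse 1 and 101.7 in S.C. mouse 2.

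The library with the highest level separated the granule genes further (a tally added after the values were seen). Of 21 other granule genes with at least 20 counts in all, 11 were highest in S.C. mouse 2, 7 in I.P. mouse 1, 2 in I.P. mouse 4 and 1 in S.C. mouse 1, where 20.1%, 20.3%, 13.6% and 20.1% of 13399 genes were. Mpo, Elane, Prtn3, Ctsg, Ms4a3, Chi3l1 and Pglyrp1 were among those highest in S.C. mouse 2, and Hp, Lrg1, Slpi, AA467197 and Chi3l3 among those highest in I.P. mouse 1. Hp, haptoglobin, had 575 counts in I.P. mouse 1, 76 and 123 in S.C. mice, and 9 to 44 in the other I.P. and DMSO mice. Lrg1, a secreted glycoprotein, had 311 counts in I.P. mouse 1, more than in S.C. mouse 1 with 78 or S.C. mouse 2 with 18. Hp and Lrg1 therefore peaked in a different mouse from Ltf, Ngp, Camp, Lcn2 and the azurophil genes Mpo, Elane, Prtn3 and Ctsg.

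Other mature neutrophil genes, 36 in the table, had 5 of 25 tested genes called higher in S.C. than in DMSO mice and 0 lower. Over all genes tested the shares were 2.29% and 2.77%. The median log2 fold change of the list was 0.74. Hdc, which makes histamine, had 12 and 12 counts in DMSO mice, 26, 8, 11 and 0 in I.P. mice, and 165 and 98 in S.C. mice (log2 fold change 3.56, SE 0.84, adjusted p = 0.747). Il1r2, the decoy receptor of IL-1, had 44 and 34, then 243, 9, 51 and 49, then 478 and 204 counts (3.22, SE 0.67). Unlike Ltf, Ngp, Camp and Lcn2, both were higher in S.C. mouse 1 than in S.C. mouse 2. Mrgpra2b, a G protein-coupled receptor, had 67 and 18 counts in S.C. mice and none in the other 6, at least 15.1-fold higher than the DMSO mice when these are set at 3 counts per library, a setting that left the median of the list at 0.74. Clec4e, the receptor Mincle, was called as well (1.43, SE 0.54, adjusted p = 0.891). The number called higher was 9 without S.C. mouse 2, 13 without S.C. mouse 1, 2 without DMSO mouse 1 and 1 without DMSO mouse 2. In I.P. mice 0 of 24 were called higher and 1, Padi4, which citrullinates histones, was lower, against 0.468% of all genes (-1.58, SE 0.65, adjusted p = 0.980), and the median was 0.18. The highest genes of the list, Alox5ap and Clec4d, were not called in either comparison. Trem1, named after its values were seen, had 523 counts in S.C. mouse 2 and 1 count in S.C. mouse 1. Ly6g, the defining surface gene of neutrophils, was listed but was not among the counted genes under that name, so its level could not be assessed. Cxcr2, the chemokine receptor of mature neutrophils, was counted in every mouse, from 382 to 2536 counts, and Cxcr1, Stfa1, Stfa2 and Stfa3 had at most 3 counts in any library.

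**Figure D4:**
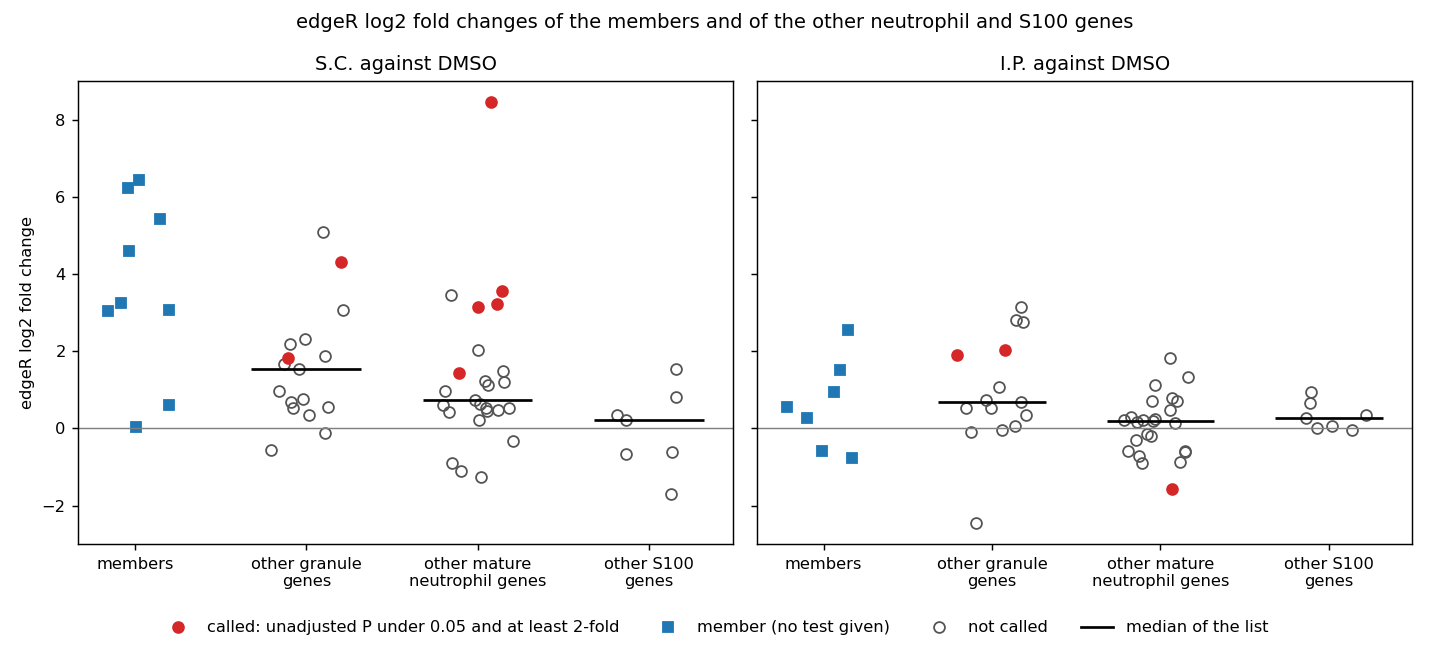
edgeR log2 fold changes of the members (blue squares, no test given) and of 3 lists of other genes, 1 point per tested gene, S.C. against DMSO on the left and I.P. against DMSO on the right. Red points are genes called at an unadjusted P under 0.05 with at least a 2-fold change, black lines are list medians, and in S.C. mice these lie at 1.55, 0.74 and 0.21 for other granule, other mature neutrophil and other S100 genes. The point above 8 is Mrgpra2b, whose DMSO libraries have no count, so its fitted value depends on the prior count.

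Other S100 genes, which encode calcium-binding proteins of the same family, were not called against DMSO mice. Over all genes tested, 5.06% were called in S.C. mice and 2% in I.P. mice. With so few tested genes, 0 calls is near these shares and is not read as a result. Of the 14 listed, 7 were tested, and 0 were called in S.C. or in I.P. mice, in either direction, with medians of 0.21 and 0.26 (1 gene was called higher in I.P. mice without DMSO mouse 2, and 2 in S.C. mice without S.C. mouse 2). S100a10, the partner of annexin A2, averaged 259 ± 168 CPM in DMSO mice, 251 ± 105 in I.P. mice and 163 ± 7.63 in S.C. mice. S100a6 averaged 125 ± 112, 160 ± 103 and 81.5 ± 16.2 CPM in these groups, and S100a11 88.1, 106 and 102 CPM. Of 8 other S100 genes with at least 20 counts, 5 were highest in I.P. mouse 1 and 0 in S.C. mouse 2. In S.C. against I.P. mice 1 of 8 tested, S100a4, was called lower, against 4.64% of all genes.

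Genes for receptors and inhibitors of the members' proteins were not called against DMSO mice. As 5.06% of all genes tested were called in S.C. mice and 2% in I.P. mice, 0 calls among few genes is near these shares. Of 10 tested binding partners, among them the receptors Tlr4 and Lrp1, the scavenger receptor Cd36 and the metalloproteinase inhibitors Timp1 and Timp2, 0 were called in S.C. or I.P. mice, with medians of -0.22 and 0.00. Tlr4, the receptor of calprotectin, had 1871 and 1755 counts in DMSO mice, 316, 1799, 1839 and 1208 in I.P. mice, and 177 and 1128 in S.C. mice, and was low in S.C. mouse 1 and I.P. mouse 1. Ager, the other receptor, had at most 7 counts outside S.C. mouse 2, which had 34. Of 9 upstream regulators tested in S.C. mice 2 were called higher, Csf3, which encodes the growth factor G-CSF, and Nfkbiz, an inducible co-factor of NF-kB needed for Lcn2, and in I.P. mice 0 of 8 were. Over all genes tested, 2.29% and 1.53% were called higher in S.C. and I.P. mice. Csf3 had 0 and 2 counts in DMSO mice, 25, 1, 2 and 0 in I.P. mice, and 83 and 36 in S.C. mice (log2 fold change 5.89, SE 1.59, adjusted p = 0.747). Nfkbiz had 290 and 243, then 3109, 188, 381 and 565, then 1158 and 3211 counts (3.19, SE 0.62, adjusted p = 0.747). The 3 libraries with the highest Csf3 and Nfkbiz were those with the highest Ltf, Ngp and Camp, but in a different order. Csf3 was highest in S.C. mouse 1, and Nfkbiz was higher in I.P. mouse 1 than in S.C. mouse 1. Of 13399 genes, 20.1%, 20.1% and 20.3% were highest in S.C. mouse 1, S.C. mouse 2 and I.P. mouse 1. A link of Csf3 or Nfkbiz to the members was not tested. The regulators Cebpb, Sfpi1 (PU.1) and Stat3, the highest of the list, were not called in either comparison, and Cebpe and Gfi1, which are needed for granule maturation, had at most 3 and 5 counts in any library.

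**Figure D5:**
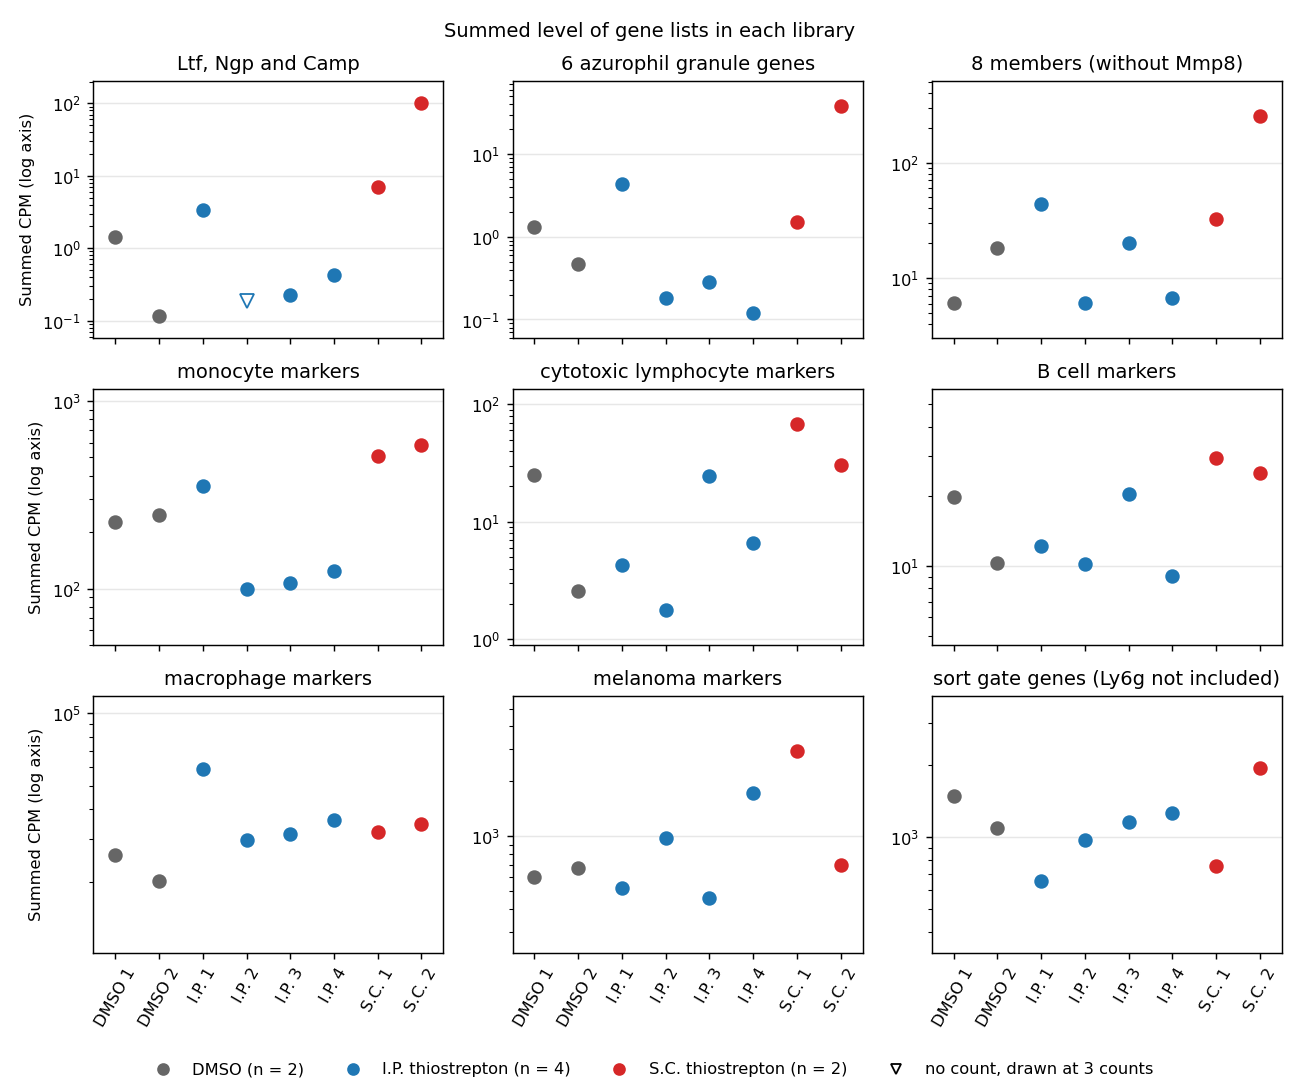
Summed CPM of gene lists in each library on log axes that differ between panels, with 1 point per mouse (grey DMSO, blue I.P., red S.C.). Ltf, Ngp and Camp sum to 101.7 CPM in S.C. mouse 2 and 7.05 in S.C. mouse 1, the azurophil genes to 38.1 and 1.52, and the macrophage markers lie between 20200 and 58835 CPM in all 8 libraries.

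The sorted cells carried macrophage markers in every library. All 12 macrophage markers were counted, with summed levels of 20200 to 25905 CPM in DMSO mice, 29923 to 58835 in I.P. mice and 32300 to 34836 in S.C. mice, led by Apoe, C1qb and C1qc. In S.C. mice 1 of 12, Mrc1, the mannose receptor, was lower (log2 fold change -1.06, SE 0.41), and in I.P. mice 1, Apoe, was higher (1.39, SE 0.46). The sum of the members other than Mmp8 was 6.06 and 18.1 CPM in DMSO mice, 6.06 to 43.6 in I.P. mice, and 32.2 and 254.5 CPM in S.C. mice, a small amount beside the macrophage genes in all of them. The gate genes Emr1 (F4/80), Ptprc (CD45) and Itgam (CD11b) were not called in either comparison. Of the Gr-1 genes, Ly6c2 had 41 and 56 counts in DMSO mice, 125, 16, 117 and 0 in I.P. mice, and 166 and 391 in S.C. mice (2.70, SE 0.69, adjusted p = 0.747), and Ly6c1 had 0, then 0 to 1, then 2 and 10 counts. The Gr-1 gene Ly6c2 was thus highest in S.C. mouse 2, then S.C. mouse 1 and then I.P. mouse 1, an order shared by Ltf, Ngp, Camp and S100a9 and not by the other 5 members.

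Markers of some other cells were also called higher in S.C. than in DMSO mice, where 2.29% of all genes tested were. Of 11 tested monocyte markers 3 were higher in S.C. mice, among them Ly6c2 and Nr4a1, a receptor of the immediate-early response (log2 fold change 5.25, SE 0.36, adjusted p = 0.131), and the summed level of the 12 was 511 and 582 CPM in S.C. mice against 226 and 245 in DMSO mice and 99.5 to 351 in I.P. mice, where Ccr2 was lower (-2.39, SE 0.36). Cytotoxic lymphocyte markers, all 11 of them counted, summed to 68.0 and 30.7 CPM in S.C. mice, 2.60 to 24.9 in DMSO mice and 1.77 to 24.7 in I.P. mice, with Gzma called higher. The 5 B cell markers, 1 of them at 0 throughout, summed to 29.2 and 25.3, 10.3 to 19.8 and 9.06 to 20.6 CPM in these groups, with Cd79a called higher. The 7 melanoma markers summed to 2925 CPM in S.C. mouse 1 and 695 in S.C. mouse 2, against 599 to 671 in DMSO mice and 458 to 1719 in I.P. mice, with Tyrp1, Dct and Sox10 called higher. Of the S.C. mice, mouse 1 had the higher melanoma, cytotoxic lymphocyte and B cell sums, and mouse 2 the higher monocyte sum and members. Some cytotoxic markers went the other way, as Nkg7 and Cd3g had 157 and 45 counts in S.C. mouse 2 and 124 and 36 in S.C. mouse 1. Of 8 eosinophil markers 3 were at 0 in all libraries, Epx among them, as were 7 of 10 mast cell and basophil markers and 6 of 8 keratinocyte markers. The mast cell and basophil sum was 4.33 CPM in S.C. mouse 2 and 0.0659 in S.C. mouse 1. It was 0.462 to 0.545 in DMSO mice and 0 to 0.428 in I.P. mice. Kit led it, with 39 counts in S.C. mouse 2 and at most 6 elsewhere. The eosinophil sum was 8.83 and 17.6 CPM in S.C. mice and 12.3 to 18.9 in DMSO mice. The part of these other cells in the members' levels was not tested.

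The genes most like the members were sought by the root mean square difference of the centred log2 CPM over the 8 libraries from the mean profile of the members, for the 11344 genes that averaged 1 CPM or more. The closest were Pde4b, a cAMP phosphodiesterase (0.540), Fndc7 (0.553), Tmem132a (0.623), Pdcd4, an inhibitor of translation (0.625), Prkd2, a kinase (0.633), Xist (0.639), Elane (0.699) and Nlrp3, the inflammasome sensor (0.711). By the same measure the members themselves lay between 0.632 for S100a8 and 1.45 for Ngp, and Mmp8, at 1.33, was farther from the mean profile than S100a9, at 0.716. Pde4b had 313 and 148 counts in DMSO mice, 588, 124, 211 and 219 in I.P. mice, and 762 and 2047 in S.C. mice, with the 3 highest libraries those that lead for the granule genes. Elane was the only granule gene among the 8. Xist, the RNA of the inactive X chromosome, had 8 to 16 counts in 7 libraries and 87 in S.C. mouse 2, the mice being described as male.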

How the data were processed

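RNA-seq of sorted B16F10 TAMs was used, with 1 library for each of 8 mice, grouped by the labels. The counts were deposited by the authors as raw whole numbers per gene symbol. The reads were aligned to mm10, by the study's methods with bowtie2 and counted with RSEM, while the submitters' processing notes list TopHat2 and edgeR. Which annotation was used, and whether counting used strand, is not given in the sources used here. Reads of near-identical genes may therefore have been split.

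The analysis used edgeR 4.0.16 and DESeq2 1.42.0 under R 4.3.3. After filterByExpr (minimum count 10, minimum total count 15) and TMM scaling, edgeR's quasi-likelihood test, two-sided, was run separately for S.C. against DMSO, I.P. against DMSO and S.C. against I.P. mice. Adjusted p-values are Benjamini-Hochberg values over all genes tested. A gene was called at an unadjusted P under 0.05 with at least a 2-fold change, the study's criterion. The SE is the log2 fold change divided by the root of F. As each group holds 2 to 4 mice, P-values measure the spread between these mice. With 14127506 to 17577466 counts per library, members with few counts are imprecise. Ratios of counts have exact 95% intervals. The procedure was tested on simulated data in which only genes above a set CPM level were changed, so the test did not cover genes with few counts.

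The members and all lists were chosen with earlier results of these data known. The text names the 3 genes with the highest mean CPM of the neutrophil, S100, binding partner, regulator and macrophage lists. It also names most genes called in S.C. or I.P. mice (the 6 highest at most) and the Gr-1 genes. For lists of other cell types this rule was not kept throughout, and Klrk1, Cx3cr1 and Pmel, among others, were not described. The 8 genes most like the members are named too, and others where the text says so or a receptor, regulator or marker is described, after their values were seen. Some genes called in these lists are not reported here. Dendritic cell, platelet, erythroid and fibroblast markers were tallied as well. In S.C. mice 0 genes of the dendritic cell, platelet and erythroid lists were called and 0 fibroblast genes could be tested. In I.P. mice 1 platelet gene, Ppbp, was lower. Positions and exon lengths are from GENCODE vM21 (GRCm38), promoters from RefSeq. Alternatives were no filter, RLE size factors, library size only, DESeq2, all 3 groups in 1 fit, a prior count of 0.5, a replicate block and leaving out each mouse. A block with the numbers crossed was added after seeing the data. Chi-square statistics between libraries of a group were at least 50.5 per degree of freedom, so no 2 libraries were alike within sampling noise.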

Additional observations from a re-analysis of the deposited data

Results flagged for a closer look

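Camp was marked in the I.P. group because I.P. mouse 1, with 6 counts, lay apart from I.P. mice 2, 3 and 4, which had no count (gap over range 1, above Dixon's 95% critical value). Such a gap arises in about 1 in 20 groups by chance, and 9 members were examined. The 3 other libraries share the same value, so the gap is fixed at its maximum, and 6 counts are few.

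Mmp8 was marked because both S.C. mice lay above the mean of the DMSO mice and all 4 I.P. mice below it. The S.C. mean exceeded the I.P. mean by 1.16 on the log2 CPM scale. No test of this difference is given, so it is read as not tested, since the members were chosen with these levels in view, and S.C. mouse 1 lay only 0.04 above the DMSO mean.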

How the results depend on the processing

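Of the summary values recomputed under an alternative, 110 stayed within the set margin (1.5 times for a count, 1 SD for a median) and 48 moved. Of the differences of single members 156 stayed within 1 SD and 6 moved, those of Mmp9 and S100a9 on leaving out a DMSO mouse. The direction of the S.C. difference was kept under all 8 alternatives by every member but Mmp9, which kept it under 6. The direction of the I.P. difference was less stable. Lcn2, Mmp8 and Retnlg kept it under all 10 alternatives, and S100a9 and Mmp9 under 9. Ltf, S100a8 and Camp kept it under 8, and Ngp under 6.

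Of the other granule genes in S.C. mice, 2 were called higher, 5 with no filter, 1 with library size only and 4 with DESeq2. In I.P. mice 2 were, 4 with no filter, 1 with library size only, 1 with all 3 groups in 1 fit and 0 with the replicate block. Between S.C. and I.P. mice 2 were, 4 with no filter, 1 with DESeq2, 4 with all 3 groups in 1 fit and 0 with the block. Of the mature neutrophil genes in I.P. mice 0 were, and 1 with DESeq2. All called genes numbered 243 in I.P. mice and 160 with all 3 groups in 1 fit, and 860 between S.C. and I.P. mice and 391 with the block. The share of higher calls in S.C. mice was 45.3%, and 31.4% with library size only, and that in I.P. mice was 76.5%, and 46.1% with the block. The causes were not tested.

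Leaving out 1 mouse at a time, the genes called in S.C. mice numbered 113 (without DMSO mouse 2) to 3432 (without S.C. mouse 2), those in I.P. mice 116 to 361 and those between the routes 632 to 2115. Fits with a lone mouse in a group assume that it varies like the other group. Granule genes called higher numbered 1 to 12, 0 to 4 and 0 to 5 in these comparisons, mature neutrophil genes 1 to 13, 0 to 1 and 3 to 7, and other S100 genes 0 to 2, 0 to 1 and 0 to 1. The median difference of the members ran from 1.22 to 4.33 in S.C. mice and from -0.35 to 0.85 in I.P. mice.

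Same-numbered mice did not deviate together (correlations -0.129 to 0.071). In a group of 2 mice the deviations mirror each other, so S.C. and DMSO mice gave the same value, -0.129, for both numbers. The check therefore could not show whether the numbers stand for a shared factor, which was not tested. With the replicate block 429 genes were called in S.C. mice, with the numbers crossed 475, and without a block 591. At this depth Camp, Ltf and Ngp lie near 3 counts in most DMSO and I.P. libraries, where differences were not detectable.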
